A study of Mus musculus with 2 samples.

Results

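Interferon-stimulated genes are the genes that a cell switches on when interferon, a secreted antiviral signal, binds its receptors. A list of 32 of them was followed across the neurons, epithelial cells, endothelial cells, stromal cells and immune cells of the adult mouse vomeronasal organ (VNO), the paired pheromone-sensing organ of the nasal septum. The list was made by gene name, with earlier results of these data known, and 30 of the 32 genes were found by symbol among the genes of the files. *Mx1* and *Mx2* were not analysed here. The material was single cell RNA sequencing of wild-type C57BL/6J male mice at postnatal day 60 (P60). VNOs were dissociated with enzymes, and the cells were frozen and thawed before 2 libraries were made on the 10x Genomics platform. The labels give 5 VNOs for the dissociation without dividing them between the libraries, so the libraries may share animals. Both libraries had the same genotype, age, sex and treatment history. There was no infected or interferon-treated sample, so the levels below are those of untreated animals, whose infection status is not stated in the labels or the methods.

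Type I interferons signal through the receptor *Ifnar1*/*Ifnar2* and the kinases *Jak1* and *Tyk2* to a complex that holds *Stat2* and *Irf9* and binds the interferon-stimulated response element in promoters. Interferon gamma signals through *Ifngr1*/*Ifngr2*, and many of its targets carry the gamma-activated site. The targets include proteins that bind viral RNA or block its translation (*Ifit1*, *Ifit2*, *Ifit3*), synthetases of the oligoadenylate that activates RNase L (the *Oas* genes), restriction factors in membranes (*Bst2*, *Ifitm3*), GTPases of the response to interferon gamma (*Gbp2*, *Gbp3*, *Igtp*, *Ifi47*) and parts of the pathway itself (*Irf7*, *Irf9*, *Stat2*, *Usp18*). Low basal expression of such genes is known in many tissues without infection.

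The promoters of the listed genes were read from RefSeq on GRCm38.p6, the assembly called mm10, from 250 bases before to 50 bases after the start of the gene. Entries were found for 24 of the 32 genes. The core of the interferon-stimulated response element, a GAAA, any 2 bases and a second GAAA, was searched on both strands, and overlapping matches were counted separately. It occurred in 14 of the 24 promoters (58.3%), against 3.99% of the 27025 genes in the table. The same core followed by CT occurred in 8 of 24 (33.3%) against 0.303% of all genes, and the shorter GAAANNGAA, which the core contains, in 15 of 24 (62.5%) against 9.76%. TTCNNNGAA, the letters of the gamma-activated site, occurred in 6 of 24 (25%), those of *Ifit2*, *Oas1a*, *Bst2*, *Ifi35*, *Igtp* and *Ifitm3*, against 9.55% of all genes. The windows of 11 members that recur in the comparisons below follow, each with the match nearest the start of the gene in capitals, read 5′ to 3′ along the strand of the gene. A match is a description of the letters and not a measured binding site.
Isg15, chr4:156200865-156200894, minus strand: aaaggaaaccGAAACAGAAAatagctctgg
Ifit1, chr19:34640794-34640823, plus strand: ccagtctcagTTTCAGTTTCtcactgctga
Ifit3, chr19:34583397-34583426, plus strand: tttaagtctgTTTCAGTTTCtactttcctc
Rsad2, chr12:26456553-26456582, minus strand: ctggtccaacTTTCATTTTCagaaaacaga
Oas3, chr5:120777715-120777744, minus strand: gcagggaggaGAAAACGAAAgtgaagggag
Bst2, chr8:71537577-71537606, minus strand: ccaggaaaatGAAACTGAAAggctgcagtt
Gbp2, chr3:142620594-142620623, plus strand: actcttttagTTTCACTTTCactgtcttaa
Gbp3, chr3:142559995-142560024, plus strand: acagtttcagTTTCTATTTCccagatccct
Igtp, chr11:58199512-58199541, plus strand: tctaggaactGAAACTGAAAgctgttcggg
Stat2, chr10:128270266-128270295, plus strand: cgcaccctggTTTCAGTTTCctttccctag
Ifitm3, chr7:141010723-141010752, minus strand: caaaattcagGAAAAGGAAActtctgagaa

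In *Isg15* the match began 66 bases before the start of the gene, and it overlapped others that began 72 and 78 bases before it. In *Ifitm3* the matches began at bases 3 and 20 of the transcribed part. *Ifih1*, *Oas1a* and *Trim30a* also held the core. Promoters without it were those of *Ifit2*, *Ifi44*, *Oasl1*, *Oasl2*, *Irf7*, *Irf9*, *Ifi35*, *Ifi47*, *Xaf1* and *Cmpk2*. *Oas2*, *Mx1*, *Mx2*, *Usp18*, *Ifi27*, *Zbp1*, *Rtp4* and *Parp14* had no entry.

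The files held 12814 and 11270 barcodes in libraries 1 and 2, with 108005626 and 95442231 UMIs (unique molecular identifiers, 1 for each captured RNA molecule). After the study's limits on genes per cell and mitochondrial RNA, 5694 and 4898 cells remained, with medians of 6668 and 6650 UMIs. Cells were clustered without the members and the wider lists of interferon genes used below, and clusters were named from markers of other kinds. This gave 1283 neurons, 2872 epithelial cells, 781 endothelial cells, 561 stromal cells and 3324 immune cells, while 74 ensheathing-like cells and 1697 cells without a name entered no comparison. Marker levels followed the names in both libraries. *Omp*, made by mature vomeronasal sensory neurons (VSNs), was at 542 and 550.5 UMIs per 1000000 UMIs (CPM) in neurons, and *Ptprc*, a surface protein of white blood cells, was at 324 and 347 CPM in immune cells. In all, 33 barcodes occurred in both libraries, 3 of them among the kept cells, and 203 cells were called doublets and kept.

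RNA of other cells was present at low levels in each group. *S100a8*, which neutrophils make in large amounts, had a UMI in 93.2% of the neutrophil-like cells (median 1591.5 UMIs a cell) and in 1.71% of the neurons (median 10871), 2.40% of epithelial, 2.69% of endothelial and 1.25% of stromal cells. The 7 macrophage markers together were at 118 and 201 CPM in neurons, from 94.4 to 300.05 CPM in epithelial, endothelial and stromal cells, and at 13868 and 14637 CPM in immune cells. All 7 had UMIs. The 8 neutrophil markers were at 21.5 and 15.6 CPM in neurons, where *Retnlg*, *Cxcr2*, *Ly6g*, *Camp* and *Ngp* were at 0 in both libraries. They were at 3.08 to 142 CPM in epithelial, endothelial and stromal cells, and at 3794 and 5558 CPM in immune cells. The part of such RNA in low levels of the members was not tested.

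All 30 members had UMIs in the kept cells, and their summed level was lowest in neurons. It was 1073 and 1100 CPM in neurons in libraries 1 and 2. Levels elsewhere were 4249 and 3893 CPM in epithelial cells, 6401 and 5622 CPM in endothelial cells, 5208 and 4821 CPM in stromal cells and 7443 and 7581 CPM in immune cells. No library of one compartment reached into the range of another, but in cells thinned to 1000 UMIs epithelial cells (5387 and 4764 CPM) and stromal cells (5118 and 4809 CPM) overlapped. By single member, 22 of 30 were highest in immune cells, 5 in endothelial cells and 1 each in epithelial cells, stromal cells and neurons, and 22 of 30 were lowest in neurons. Of all 17958 genes with at least 10 UMIs, 15.5% were highest in immune and 16.9% in endothelial cells, and 21.7% were lowest in neurons. The sum was carried by few genes. *Ifitm3* held 62.5% of the members' UMIs in epithelial cells, 54.3% in endothelial, 53.4% in stromal and 33.9% in immune cells, whereas *Ifi27* held 45.3% in neurons. Levels are CPM of 3′ ends and are compared between cells for each gene, not between genes. Fewer expressing cells and less RNA per cell cannot be told apart in such sums.

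**Figure D1:**
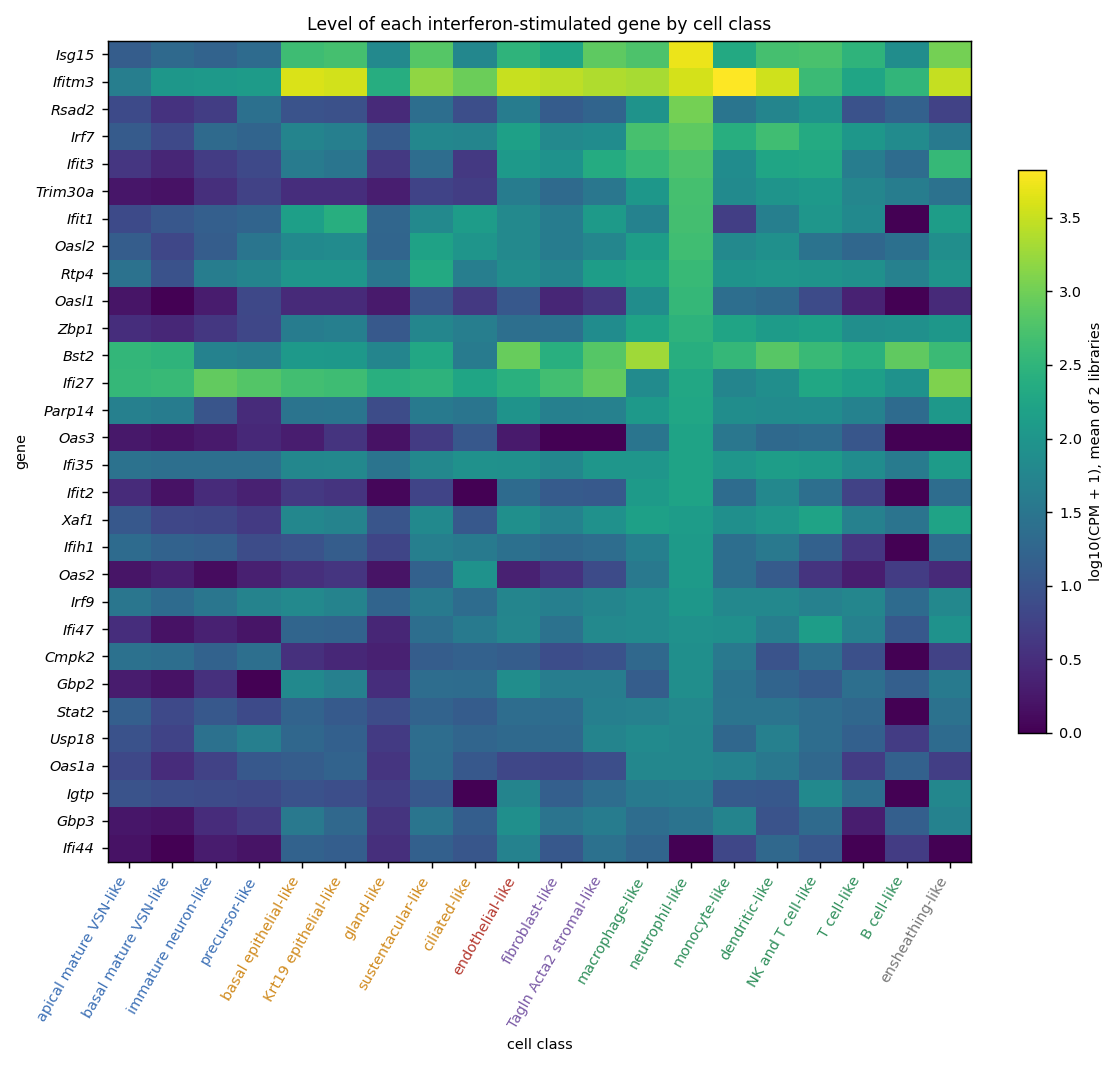
Level of each of the 30 members (rows, ordered by their level in neutrophil-like cells) in each class of cells (columns), coloured by log10 of CPM plus 1 as the mean of the 2 libraries. The neutrophil-like column is the brightest of all for 20 of the 30 genes, against 6.68% of all genes. *Ifi27* stands out in the 4 neuron columns, and *Bst2* in those of the mature VSN-like classes.

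**Figure D2:**
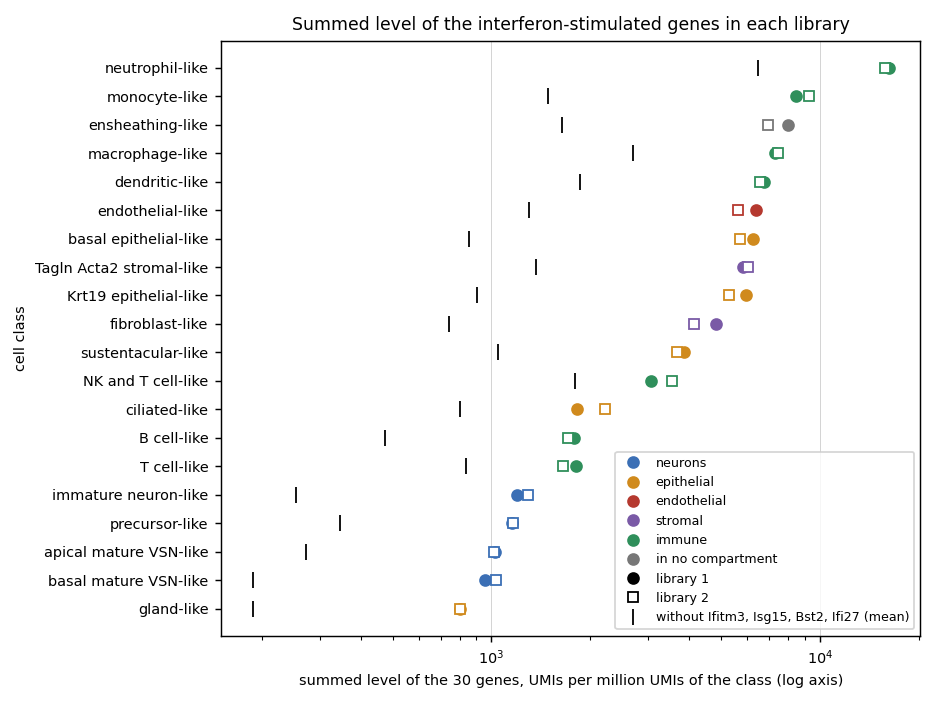
Summed level of the 30 members in CPM on a log axis for each named class of cells, with filled points for library 1, open points for library 2 and a black bar for the mean without *Ifitm3*, *Isg15*, *Bst2* and *Ifi27*. Neutrophil-like cells stand highest at 16194 and 15749 CPM, and gland-like cells lowest at 803 and 801 CPM.

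Among the effectors that bind or modify RNA and protein, *Isg15*, *Ifit1* and *Ifit3* were low in neurons and several times higher elsewhere, while *Ifit2* was near its neuronal level in epithelial cells. *Isg15* (ENSMUSG00000035692, chr4:156199424-156200818, minus strand, mm10, protein coding) encodes a ubiquitin-like modifier. It was at 14.6 and 15.3 CPM in neurons, 408 and 311 CPM in epithelial cells, 350.0 and 259 CPM in endothelial cells, 369 and 402 CPM in stromal cells and 996 and 901 CPM in immune cells. Immune cells were above and neurons below all other values, and the 3 compartments between them overlapped. *Ifit1* was at 10.6 and 8.47 CPM in neurons, 128 and 121 in epithelial, 62.8 and 61.1 in endothelial, 56.4 and 83.2 in stromal and 82.3 and 92.1 in immune cells. It was the member highest in epithelial cells. *Ifit2* was at 1.53 and 1.81 CPM in neurons, 2.84 and 1.89 in epithelial, 21.2 and 21 in endothelial, 14.1 and 8.21 in stromal and 90.5 and 102 in immune cells, without overlap between any compartments. *Ifit3* was at 3.29 and 3.48, 29.1 and 18.2, 135 and 94, 142 and 137 and 302 and 299 CPM in the same order, and the order of its levels differed, with stromal cells second to immune cells. Reads that match *Ifit3* and its close copy *Ifit3b* may be counted for neither, so its level is uncertain.

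Immune cells were also the leading compartment of the *Oas* family. *Oas3* was at 0.823 and 0.907 CPM in neurons, 1.88 and 1.45 in epithelial, 0.757 and 1.02 in endothelial and 38 and 38.8 in immune cells, and it had no UMI in stromal cells. *Oas2* was at 0.47 and 0.907 CPM in neurons, 2.74 and 5.17 in epithelial, 0.757 and 1.7 in endothelial, 3.52 and 4.62 in stromal and 25.2 and 42 in immune cells. Neurons and endothelial cells overlapped for both genes. *Oas1a*, which has close copies, was at 6.47 and 4.54 CPM in neurons, 13.3 and 9.15 in epithelial, 6.81 and 4.41 in endothelial, 7.05 and 5.13 in stromal and 48.2 and 45 in immune cells. *Oasl1*, related to the synthetases, was at 0.588 and 1.81 CPM in neurons, 3.22 and 1.39 in epithelial, 13.2 and 7.13 in endothelial, 1.96 and 2.05 in stromal and 71.2 and 88 in immune cells. For all 4 of these genes, both immune values lay above every other value. *Rsad2*, which encodes the antiviral enzyme viperin, rested at 6.7 and 7.71 CPM in neurons and 145 and 185 CPM in immune cells. *Cmpk2*, its neighbour on the chromosome and a mitochondrial nucleotide kinase, was an exception, with 20.6 and 25.1 CPM in neurons and 3.65 and 2.27 CPM in epithelial cells. Its neuronal values overlapped the immune values of 18.7 and 24.7 CPM.

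Of the members that act in the pathway itself, *Irf7* (ENSMUSG00000025498, chr7:141262706-141266481, minus strand), a transcription factor of the interferon genes, was at 12.2 and 14.4 CPM in neurons, 42.7 and 34.7 in epithelial, 167 and 136 in endothelial, 72.5 and 58.5 in stromal and 475 and 477 in immune cells. No compartments overlapped. *Irf9* and *Stat2*, which belong to the type I complex, spanned less. *Irf9* ran from 32.4 and 30.2 CPM in neurons to 64.6 and 71.7 CPM in immune cells, and *Stat2* from 10.6 and 11.3 to 37.2 and 44.9 CPM. *Usp18*, the protease that removes ISG15 and dampens the receptor, was at 18 and 13.5 CPM in neurons and 14.9 and 11.5 CPM in epithelial cells, which overlapped, and at 55.8 and 53.3 CPM in immune cells.

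The membrane factors showed a separate order each. *Ifitm3* (ENSMUSG00000025492, chr7:141009586-141010770, minus strand), which hinders virus entry, was at 66.1 and 86.8 CPM in neurons and 2642 and 2449.9 CPM in epithelial cells. It was at 3507 and 3021 CPM in endothelial, 2852 and 2478 in stromal and 2597 and 2491 in immune cells. Endothelial cells were highest in CPM, and epithelial, stromal and immune values overlapped. In the edgeR fit below, which uses TMM normalization, immune and endothelial cells differed by a log2 fold change of 0.03 (adjusted p = 0.91). *Bst2* (ENSMUSG00000046718, chr8:71534255-71537456, minus strand), called tetherin because it holds virus particles at the cell surface, was at 236 and 240.3 CPM in neurons, 103 and 99.2 in epithelial, 918 and 819 in endothelial, 395 and 407 in stromal and 1213 and 1365 in immune cells. Neurons stood above epithelial cells for this gene. *Ifi27* was at 490.5 and 493 CPM in neurons, 377 and 378 in epithelial, 271 and 267 in endothelial, 619 and 569.8 in stromal and 93 and 85.7 in immune cells. It was the 1 member that was lowest in immune cells.

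Endothelial cells led for *Gbp2*, *Gbp3* and *Igtp*, 3 of the 4 GTPases. *Gbp2* was at 0.47 and 1.81 CPM in neurons, 36.6 and 35.8 in epithelial, 77.6 and 72.6 in endothelial, 43.1 and 39 in stromal and 17.2 and 23.2 in immune cells. *Gbp3* was at 0.94 and 1.66 CPM in neurons, 19.7 and 20.2 in epithelial, 74.5 and 83.5 in endothelial, 30.2 and 35.4 in stromal and 16.1 and 22.4 in immune cells. *Igtp* was at 7.64 and 7.56 CPM in neurons, 6.92 and 6.81 in epithelial, 53.7 and 49.9 in endothelial, 18.4 and 14.9 in stromal and 31 and 26.7 in immune cells. Endothelial values did not overlap those of any other compartment for these 3 genes. *Ifi47* was at 1.65 and 1.51 CPM in neurons, 12.9 and 12.4 in epithelial, 61.7 and 49.9 in endothelial, 42.7 and 37 in stromal and 69 and 61.4 in immune cells, and was highest in immune cells, whose values overlapped the endothelial ones. *Ifi44*, which is not a GTPase of this family, had the same leading compartment. It was at 0.705 and 0.454 CPM in neurons, 10.2 and 10.9 in epithelial, 48.8 and 47.5 in endothelial, 16.1 and 15.9 in stromal and 10.0 and 17.7 in immune cells.

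Among the remaining members, the nucleic acid sensor *Zbp1* was at 2.23 and 3.18 CPM in neurons, 35.1 and 32.7 in epithelial, 22.7 and 26.1 in endothelial, 39.2 and 43.6 in stromal and 159 and 167 in immune cells. *Trim30a*, of the ubiquitin ligase family of tripartite motif proteins, was at 0.705 and 2.27 CPM in neurons, 2.74 and 1.51 in epithelial, 35.6 and 43.4 in endothelial, 25.5 and 23.1 in stromal and 118 and 148 in immune cells. Its neuronal and epithelial values overlapped. *Ifih1*, the viral RNA sensor MDA5, was at 17.9 and 15.9 CPM in neurons and 37.5 and 50.7 CPM in immune cells. *Oasl2*, *Ifi35*, *Xaf1*, *Rtp4* and *Parp14* each had both immune values above those of the other compartments.

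To ask how the members differed between compartments, UMIs were summed for each compartment and library, and the 10 sums were fitted together over 17958 genes with edgeR's quasi-likelihood test. Adjusted p is by Benjamini-Hochberg over all of these genes with a threshold of 0.05, ± is the SE, and log2 fold changes are after TMM normalization. With nothing to say that the libraries came from separate animals, p-values measure only the spread between these 2 libraries. The 4 comparisons with neurons share the neuron sums.

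In epithelial cells, 24 of 30 members were higher and 2 lower than in neurons. Of all genes tested, 31.7% were higher and 32.6% lower. The median log2 fold change was 1.63 for the members and 0.00 for all genes. In the edgeR fit the largest changes were 5.67 ± 0.18 for *Ifitm3* (adjusted p = 3.32e-11), 5.66 ± 0.29 for *Gbp2* (adjusted p = 1.34e-09) and 5.20 ± 0.22 for *Isg15* (adjusted p = 2.65e-10). They were followed in the edgeR fit by 4.70 ± 0.34 for *Ifi44* (adjusted p = 3.64e-08), 4.56 ± 0.24 for *Gbp3* (adjusted p = 1.37e-09) and 4.30 ± 0.18 for *Ifit1* (adjusted p = 2.14e-10), while the value was 2.16 ± 0.19 for *Irf7* (adjusted p = 3.13e-07). The 2 members that were lower by edgeR were tetherin, with -0.63 ± 0.12 for *Bst2* (adjusted p = 0.000416), and the nucleotide kinase, with -2.31 ± 0.22 for *Cmpk2* (adjusted p = 8.28e-07). *Ifih1*, *Usp18*, *Ifi27* and *Parp14* did not pass, but with the library as a block *Usp18* and *Ifi27* passed as higher after TMM. In CPM *Ifi27* was lower in epithelial cells without overlap, at 377 and 378 against 490.5 and 493, and *Usp18* overlapped. *Igtp*, counted as higher at 0.45, was also lower in CPM, at 6.92 and 6.81 against 7.64 and 7.56. In thinned cells 19 members were higher and 1 lower. *Bst2*, at -0.15, did not pass there, nor did *Ifit2*, *Igtp*, *Oasl1*, *Rsad2*, *Stat2* and *Trim30a*, while *Parp14* passed as higher. With dividing cells among the neurons *Ifit2*, *Oasl1*, *Rsad2* and *Trim30a* did not pass, and *Ifi27* and *Parp14* passed as higher. *Trim30a*, at 1.22 over both libraries, was at -0.0023 without library 1. Without TMM the median of all genes moved by -0.60, and of all called genes 31.3% were higher in place of 49.4%. *Oasl1*, *Trim30a*, *Stat2*, *Igtp*, *Rsad2* and *Ifit2* then did not pass, the log2 fold change of *Igtp* was -0.15, and *Ifi27* (-0.38) and *Parp14* (-0.42) were lower.

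In endothelial cells, 24 members were higher and 2 lower than in neurons, against 26.9% and 31.1% of all genes. The median was 2.74 for the members and -0.09 for all genes. The leading values by edgeR were 6.47 ± 0.32 for *Ifi44* (adjusted p = 8.81e-10), 6.29 ± 0.30 for *Gbp2* (adjusted p = 6.19e-10) and 6.13 ± 0.23 for *Gbp3* (adjusted p = 8.91e-11). Next in the edgeR fit stood 5.61 ± 0.18 for *Ifitm3* (adjusted p = 3.1e-11), 5.30 ± 0.24 for *Ifi47* (adjusted p = 5.08e-10) and 5.26 ± 0.31 for *Ifit3* (adjusted p = 5.09e-09). The same edgeR fit gave 4.54 ± 0.22 for *Isg15* (adjusted p = 8.43e-10), 3.70 ± 0.20 for *Irf7* (adjusted p = 2.05e-09) and 2.06 ± 0.12 for *Bst2* (adjusted p = 6.61e-09). *Cmpk2* and *Ifi27* were lower, both by a log2 fold change of -0.68. *Oas1a*, *Oas2*, *Oas3* and *Usp18* did not pass, but with the library as a block *Usp18* passed as higher.

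In stromal cells, 25 members were higher and 2 lower than in neurons, against 27% and 29.8% of all genes, with a median of 1.82 for the members and -0.09 for all genes. The largest edgeR values were 5.53 ± 0.31 for *Ifit3* (adjusted p = 3.42e-09), 5.42 ± 0.32 for *Gbp2* (adjusted p = 6.52e-09) and 5.31 ± 0.18 for *Ifitm3* (adjusted p = 4.14e-11). Below them in the edgeR fit were 4.87 ± 0.39 for *Ifi44* (adjusted p = 1.59e-07), 4.86 ± 0.22 for *Isg15* (adjusted p = 5.36e-10), 2.49 ± 0.21 for *Irf7* (adjusted p = 2.06e-07) and 0.92 ± 0.12 for *Bst2* (adjusted p = 1.85e-05). *Oas3* and *Cmpk2* were lower. *Oas3* had 0 UMIs in stromal cells and 13 in neurons, so the fitted edgeR value, -5.30 ± 1.65 for *Oas3* (adjusted p = 0.0259), depends on the prior count. Set against a floor of 3 UMIs over the group (0.666 CPM), it was at least 1.29-fold lower than the 0.860 CPM of neurons. It did not pass with DESeq2, in thinned cells, with the 10% mitochondrial limit or without cells holding macrophage or neutrophil markers. *Ifih1*, *Oasl1* and *Oas1a* did not pass.

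In immune cells, 29 of 30 members were higher than in neurons and 1 was lower, against 31% and 34.9% of all genes. The median was 4.55 for the members and -0.06 for all genes. The largest changes by edgeR were 7.13 ± 0.31 for *Trim30a* (adjusted p = 2.01e-10), 7.05 ± 0.30 for *Ifit3* (adjusted p = 1.9e-10) and 6.69 ± 0.38 for *Oasl1* (adjusted p = 3.31e-09). The edgeR values that followed were 6.57 ± 0.23 for *Isg15* (adjusted p = 4.06e-11), 6.51 ± 0.17 for *Zbp1* (adjusted p = 7.14e-12) and 6.42 ± 0.25 for *Ifit2* (adjusted p = 8.49e-11). Further edgeR values were 5.75 ± 0.20 for *Irf7* (adjusted p = 3.82e-11), 5.65 ± 0.18 for *Ifitm3* (adjusted p = 2.15e-11) and 3.02 ± 0.13 for *Bst2* (adjusted p = 1.54e-10). *Ifi27* was the lower member, with a log2 fold change of -1.87. Neutrophil-like cells held 50.6% of the immune UMIs of *Isg15*, and without them its log2 fold change was 5.71. Without TMM the median of all genes moved by -0.58, and 32.6% of all called genes were higher in place of 47.0%. *Cmpk2*, counted as higher at 0.51, was then at -0.08 and did not pass. It also did not pass with DESeq2, with the 10% mitochondrial limit or without neutrophils. The CPM values of *Cmpk2* in neurons and immune cells overlapped.

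Immune and endothelial cells were compared with each other in the same fit. There, 24 members were higher and 5 lower in immune cells, against 22.6% and 20.7% of all genes, with a median of 1.24 for the members and 0.05 for all genes. The *Oas* family led, with edgeR values of 5.79 ± 0.32 for *Oas3* (adjusted p = 1.4e-08), 5.11 ± 0.45 for *Oas2* (adjusted p = 6.2e-07), 3.46 ± 0.30 for *Oas1a* (adjusted p = 4.85e-07) and 3.37 ± 0.32 for *Oasl1* (adjusted p = 1.43e-06). In the edgeR fit 3.13 ± 0.14 for *Zbp1* (adjusted p = 8.92e-10) and 2.58 ± 0.20 for *Ifit2* (adjusted p = 1.56e-07) followed, and 2.03 ± 0.19 for *Isg15* (adjusted p = 8.67e-07), 2.05 ± 0.17 for *Irf7* (adjusted p = 2.88e-07) and 0.96 ± 0.12 for *Bst2* (adjusted p = 1.67e-05) also passed. The 5 members that were higher in endothelial cells were *Gbp3* (-1.65), *Gbp2* (-1.50), *Ifi44* (-1.42), *Ifi27* (-1.19) and *Igtp* (-0.44). Of these, *Igtp* did not pass with DESeq2, in thinned cells or with the 10% mitochondrial limit. The edgeR value of the remaining member was 0.03 ± 0.15 for *Ifitm3* (adjusted p = 0.91). Without TMM the median of all genes moved by -0.40, 32.9% of all called genes were higher in place of 52.1%, *Ifi47*, *Irf9* and *Parp14* did not pass, and *Ifitm3* was lower in immune cells, at -0.36.

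**Figure D3:**
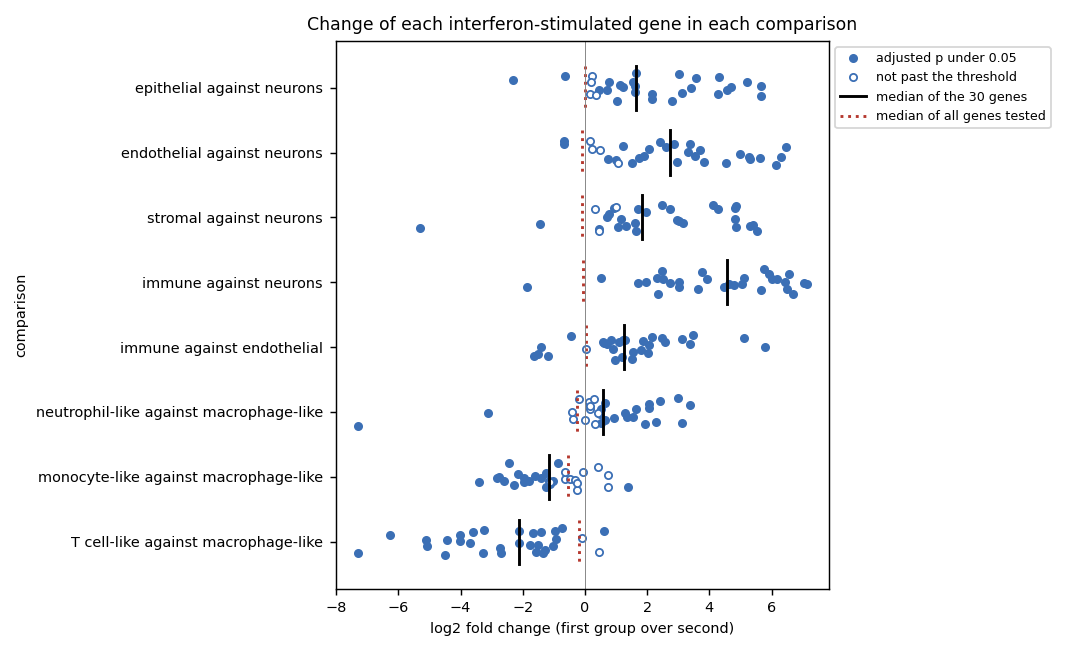
Log2 fold change of each member (points, spread vertically for view) in the 8 comparisons, filled where the adjusted p was under 0.05 by edgeR, with a black line at the members' median and a dotted line at the median of all genes tested. In immune cells against neurons 29 of 30 points lie above 0, and in T cell-like against macrophage-like cells 27 filled points lie below 0.

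Within the immune cells the members were highest in neutrophil-like cells, as a share of the UMIs of a class. The summed level was 16194 and 15749 CPM there, 8432 and 9250 CPM in monocyte-like cells, 7293 and 7435 CPM in macrophage-like cells, 6741 and 6594 CPM in dendritic-like cells, 3067 and 3544 CPM in the mixed NK and T cell-like cluster, 1810 and 1649 CPM in T cell-like cells and 1780 and 1705 CPM in B cell-like cells. T cell-like and B cell-like values overlapped, and the other classes did not. The median was 1591.5 UMIs a cell in neutrophil-like and 4505 in macrophage-like cells. Member UMIs per cell were not compared, so this order holds for shares only. Classes with at least 20 cells in each library were fitted together over 13198 genes. That left out the 51 B cell-like cells.

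Neutrophil-like cells (752 cells) were above macrophage-like cells in viperin, *Ifit1* and *Isg15* by the largest margins. *Isg15* was at 5456 and 5057 CPM in them and 613 and 543 CPM in the 1689 macrophage-like cells. *Rsad2* was at 999 and 1154 against 70.8 and 111 CPM, *Ifit1* at 480.2 and 481 against 43.6 and 53.8 CPM, and *Gbp2* at 74.4 and 79.9 against 12.6 and 12.4 CPM. Of the 30 members, 18 were higher and 2 lower, against 16% and 21.9% of all genes, with a median of 0.57 for the members and -0.26 for all genes. In this edgeR fit the values were 3.39 ± 0.20 for *Rsad2* (adjusted p = 7.13e-65), 3.12 ± 0.20 for *Ifit1* (adjusted p = 2.4e-53), 3.00 ± 0.18 for *Isg15* (adjusted p = 2.21e-58) and 2.42 ± 0.28 for *Gbp2* (adjusted p = 1.4e-16). The edgeR value was 0.66 ± 0.16 for *Ifitm3* (adjusted p = 0.000334). *Irf7* was at 747 and 752 CPM in neutrophil-like and 541 and 505 CPM in macrophage-like cells, and its edgeR value did not pass, with 0.33 ± 0.18 for *Irf7* (adjusted p = 0.137), but with the library as a block its adjusted p was 0.00428. *Irf9* then also passed as higher and *Xaf1* as lower. *Irf7* passed as higher too with DESeq2, without TMM, with edgeR's own filter on low counts and in thinned cells. It also did so with interferon genes among the variable genes, without the shallow macrophage-like cluster and without cells holding macrophage or neutrophil markers. It did not pass with no filter on low counts, without doublets, with the 10% mitochondrial limit or in a coarser clustering. *Bst2* was the reverse, at 232 and 271 CPM in neutrophil-like and 1878 and 1969.6 CPM in macrophage-like cells, with an edgeR value of -3.12 ± 0.19 for *Bst2* (adjusted p = 4.6e-56). Macrophage-like cells held 83.1% of the immune UMIs of *Bst2* and neutrophil-like cells 1.78%. *Ifi44* had no UMI in neutrophil-like cells and 13.5 and 20.6 CPM in macrophage-like cells. Against a floor of 3 UMIs over both libraries it was at least 6.92-fold lower, and the fitted edgeR value of -7.30 ± 1.25 for *Ifi44* (adjusted p = 4.94e-08) depends on the prior count.

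Monocyte-like cells (116 cells) ranked above macrophage-like cells in the sum, and most of their sum came from *Ifitm3*. It was at 6588 and 6881 CPM in them and 2083 and 2122 CPM in macrophage-like cells. *Ifitm3* was the 1 member that was higher, while 18 were lower, against 5.79% and 10.3% of all genes. The median was -1.15 for the members and -0.53 for all genes. The edgeR values were 1.38 ± 0.17 for *Ifitm3* (adjusted p = 7.76e-15), -3.40 ± 0.56 for *Ifit1* (adjusted p = 3.51e-08), -2.83 ± 0.36 for *Ifit2* (adjusted p = 2.14e-13) and -2.76 ± 0.20 for *Bst2* (adjusted p = 1.27e-41). Other edgeR values were -2.62 ± 0.25 for *Ifit3* (adjusted p = 5.51e-23), -2.43 ± 0.83 for *Ifi44* (adjusted p = 0.0237), -1.80 ± 0.20 for *Isg15* (adjusted p = 5.12e-17) and -1.40 ± 0.21 for *Irf7* (adjusted p = 3.91e-10). *Ifit1* was at 8.34 and 0 CPM, *Ifit2* at 16.7 and 27.1, *Ifit3* at 72.3 and 70.5, *Isg15* at 175 and 244, *Irf7* at 214 and 282, *Bst2* at 314 and 390.4 and *Ifi44* at 0 and 10.8 CPM in monocyte-like cells. In library 2 the neutrophil markers reached 23858 CPM in this class against 50.1 CPM in library 1, and 1548 of the 1550 UMIs of *S100a8* there came from 1 cell that was called a doublet. *Isg15* was at 244 CPM in that library with the cell and 249 CPM without it. *Ifi44* rested on 2 UMIs in 1 of these cells and did not pass with DESeq2, without TMM, with edgeR's own filter on low counts or in thinned cells. The lower members numbered 13 without TMM and 12 with DESeq2. Without TMM the median of all genes moved by 0.28, and 57.4% of all called genes were higher in place of 35.9%.

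T cell-like cells (275 cells) were low in nearly the whole list. Compared with macrophage-like cells, 27 members were lower and 1 was higher, against 17.8% and 11.2% of all genes, with a median of -2.11 for the members and -0.20 for all genes. *Ifi27* was the higher member, at 142 and 141 CPM against 71.3 and 65.5 CPM. *Gbp2* and *Ifit1* did not pass. The edgeR values were -6.28 ± 0.59 for *Oasl1* (adjusted p = 3e-25), -5.12 ± 0.71 for *Oas2* (adjusted p = 1.15e-11), -5.07 ± 0.42 for *Ifit2* (adjusted p = 4.76e-32), -4.51 ± 0.81 for *Gbp3* (adjusted p = 2.4e-07) and -4.42 ± 0.51 for *Oas1a* (adjusted p = 6.7e-17). For the 4 genes followed throughout they were -4.03 ± 0.20 for *Ifitm3* (adjusted p = 3.1e-90), -3.24 ± 0.20 for *Bst2* (adjusted p = 1.5e-58), -2.74 ± 0.22 for *Irf7* (adjusted p = 4.22e-35) and -1.30 ± 0.18 for *Isg15* (adjusted p = 2.91e-11) by edgeR. *Oasl1* was at 0 and 2.71 CPM in T cell-like and 66.7 and 84.4 CPM in macrophage-like cells, *Oas2* at 2 and 0 against 25 and 42.7, *Ifit2* at 4 and 5.42 against 115 and 124, *Gbp3* at 2 and 0 against 19.1 and 25.2 and *Oas1a* at 2 and 5.42 against 63.2 and 51.9 CPM. *Isg15* was at 404 and 214, *Irf7* at 108 and 100.3, *Ifitm3* at 144 and 206 and *Bst2* at 312 and 225 CPM in T cell-like cells. *Ifi44* had no UMI in T cell-like cells and was at least 4.92-fold lower, and its fitted edgeR value of -7.30 ± 1.35 for *Ifi44* (adjusted p = 6.74e-07) depends on the prior count. Without TMM the median of all genes moved by 0.41, and 61.2% of all called genes were higher in place of 38.6%. *Cmpk2*, *Ifi35*, *Ifi47*, *Igtp* and *Irf9* then did not pass, which left 22 lower members.

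Classes also differed inside. The pairs of clusters described next were chosen after their values were seen, so no test is given. The clusters were made without the members and the wider interferon lists. Other genes that interferon may induce were not left out. Among neutrophil-like cells, the cluster led by *S100a8* and *Camp* (384 cells) had a summed level of 24803 and 24051 CPM, and the cluster led by *Mmp9* and *Il1r2* (368 cells) one of 6762 and 7456 CPM. Of the 29 members with at least 10 UMIs in the pair, 28 were higher in the first cluster without overlap between the libraries and 0 lower, against 14.7% higher and 50.2% lower of all genes. *Camp* encodes a granule protein that neutrophils make while they mature, and *Mmp9* one that they make later. All 8 neutrophil markers were at least 4-fold above the remaining cells in the first cluster, *Retnlg*, *Ly6g* and *Cxcr2* among them. In the second cluster 4 were, namely *S100a8*, *S100a9*, *Csf3r* and *Cxcr2*. Whether the clusters differ in maturity was not tested. *Isg15* was at 8297 and 7798 CPM in the *Camp* cluster and 2344 and 2319.8 CPM in the *Mmp9* cluster. *Rsad2* was at 1680.2 and 1971 against 253 and 337 CPM, *Ifit3* at 1022 and 928 against 139.6 and 174 CPM, *Irf7* at 1168 and 1129.9 against 286 and 375 CPM and *Bst2* at 284 and 302 against 175 and 239.6 CPM. *Ifi27*, at 178 and 198 against 237 and 177 CPM, overlapped.

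Among endothelial cells, the cluster led by *Cldn5* and *Sox17* (388 cells) had a summed level of 8306 and 6968 CPM, and the cluster led by *Selp* and *Sele* (357 cells), adhesion molecules that catch white blood cells, one of 4562 and 4364 CPM. Of 28 members, 27 were higher in the first and 0 lower, against 32.6% and 17.2% of all genes. *Irf7* was at 342 and 249.8 CPM against 20.7 and 49.8 CPM, *Rsad2* at 84.3 and 73.4 against 8.85 and 8.83 CPM and *Isg15* at 509 and 338 against 194 and 155 CPM. *Gbp2* did not follow, at 81.7 and 63.3 against 75.2 and 78.2 CPM.

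Basal epithelial-like cells also differed between clusters. The cluster named for *Krt14* (1046 cells) summed to 7354 and 6552 CPM and the one named for *Krt13* (233 cells) to 2956 and 2685 CPM. *Krt14* was at least 4-fold above the remaining cells in both clusters. In the first cluster 25 of 30 members were higher and 0 lower, against 27.5% and 24.2% of all genes. *Isg15* was at 652 and 437 CPM in the first and 79.7 and 63 CPM in the second, and *Ifitm3* at 4971 and 4536 against 2088 and 1956 CPM. Sustentacular-like cells, which support the sensory neurons, had 30 of 30 members above gland-like cells, but 76.4% of all genes were higher there too. *Isg15* was at 663 and 654 CPM in sustentacular-like and 71.3 and 51.9 CPM in gland-like cells. The stromal cells were *Tagln* *Acta2* cells (175 cells) and fibroblast-like cells (386 cells). Each group had all 6 fibroblast and all 5 smooth muscle markers at least 4-fold above the remaining cells. The names therefore do not part contractile cells from fibroblasts. In the *Tagln* *Acta2* cells 18 of 28 members were higher than in fibroblast-like cells and 1 was lower, against 24.6% and 24.7% of all genes. The lower member was *Ifitm3*, at 2488 and 2248 against 3069 and 2606 CPM. *Isg15* was at 647 and 860.1 CPM against 203 and 147 CPM.

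In macrophage-like cells the difference was smaller. The *Mrc1* cluster (496 cells) summed to 9206 and 9078 CPM and the *Trem2* *Cd72* cluster (694 cells) to 6285 and 6354 CPM, and 24 of 30 members were higher and 1 lower, against 46% and 14.1% of all genes. *Irf7* overlapped, at 494 and 504 against 554 and 499 CPM. Between the mature neurons, 15 of 23 members were higher in apical (594 cells) than in basal VSN-like cells (109 cells) and 2 lower, against 36.2% and 20.4% of all genes. *Ifitm3* was lower in apical cells, at 37.7 and 48.5 against 96.4 and 111 CPM, and so was *Ifi27*, at 364 and 332 against 389 and 366 CPM. *Isg15* overlapped, at 13.7 and 10.9 against 12.6 and 25.8 CPM.

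Within the neurons, some members differed by stage in opposite directions. *Bst2* was at 35.4 and 50.8 CPM in the 176 precursor-like cells and 51.5 and 45.9 CPM in the 404 immature neuron-like cells, and at 342 and 349 CPM in apical and 286 and 328 CPM in basal VSN-like cells. *Parp14*, an ADP-ribosyltransferase, was at 0 and 4.01, 2.94 and 15.3, 45 and 44.6 and 38.8 and 41.6 CPM in the same order. Both were higher in the mature classes without overlap. *Ifi27* was at 584 and 667 CPM in precursor-like, 788 and 831 in immature neuron-like, 364 and 332 in apical and 389 and 366 CPM in basal VSN-like cells, and *Usp18* at 44.9 and 42.8, 29.9 and 21, 10.5 and 5.87 and 5.24 and 4.49 CPM. Both were lower in the mature classes without overlap. These levels were seen before they were chosen for description, and no test is given.

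**Figure D4:**
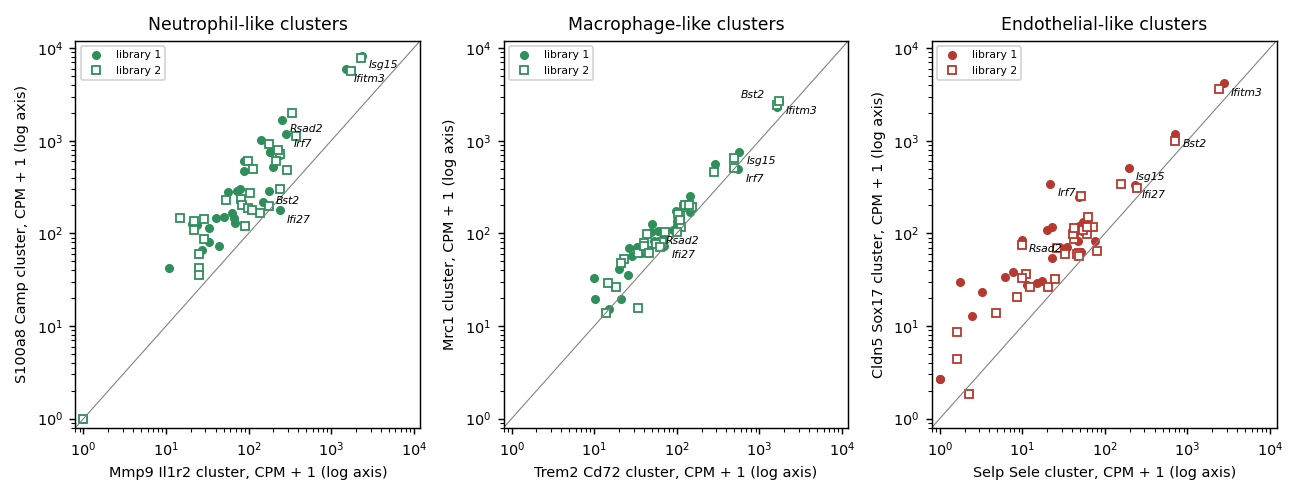
CPM plus 1 of each member on log axes in 3 pairs of clusters, with the first cluster of a pair on the vertical and the second on the horizontal axis, and filled and open points for libraries 1 and 2. Points above the diagonal are higher in the *S100a8* *Camp* neutrophil-like, *Mrc1* macrophage-like or *Cldn5* *Sox17* endothelial-like cluster. There 28 of 29, 24 of 30 and 27 of 28 members were higher without overlap, against 14.7%, 46% and 32.6% of all genes.

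How members came together in single cells was described with a core list of 12 type I genes, of which 11 were measured. A cell with UMIs of at least 3 of the 11 was counted. Such cells were 6.39% of neurons (95% exact binomial interval 5.12 to 7.87), 40.5% of epithelial, 37.0% of endothelial, 36.7% of stromal and 48.9% of immune cells. Such shares depend on the UMIs of a cell, so each cell was also thinned to 1000 UMIs. The shares were then 0 of 1282 neurons, which allows a share of up to 0.234%, 2.77% of epithelial, 6.66% of endothelial, 3.64% of stromal and 23.1% of immune cells, with 410 shallower immune cells left out. Intervals and limits cover counting error only.

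In the neutrophil-like class the thinned share was 50.7%. In its *S100a8* *Camp* cluster they were 81.8% before and 76.2% after thinning, and in its *Mmp9* *Il1r2* cluster 30.7% and 21.7%. Macrophage-like cells went from 53.2% to 19.4%, dendritic-like cells from 62.1% to 12.2%, and sustentacular-like cells from 61.5% to 2.52%. The mixed NK and T cell-like cluster held 29.9% and 18.2%. In endothelial cells the *Cldn5* *Sox17* cluster held 47.9% before and 11.98% after thinning, and the *Selp* *Sele* cluster 22.97% and 1.17%.

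**Figure D5:**
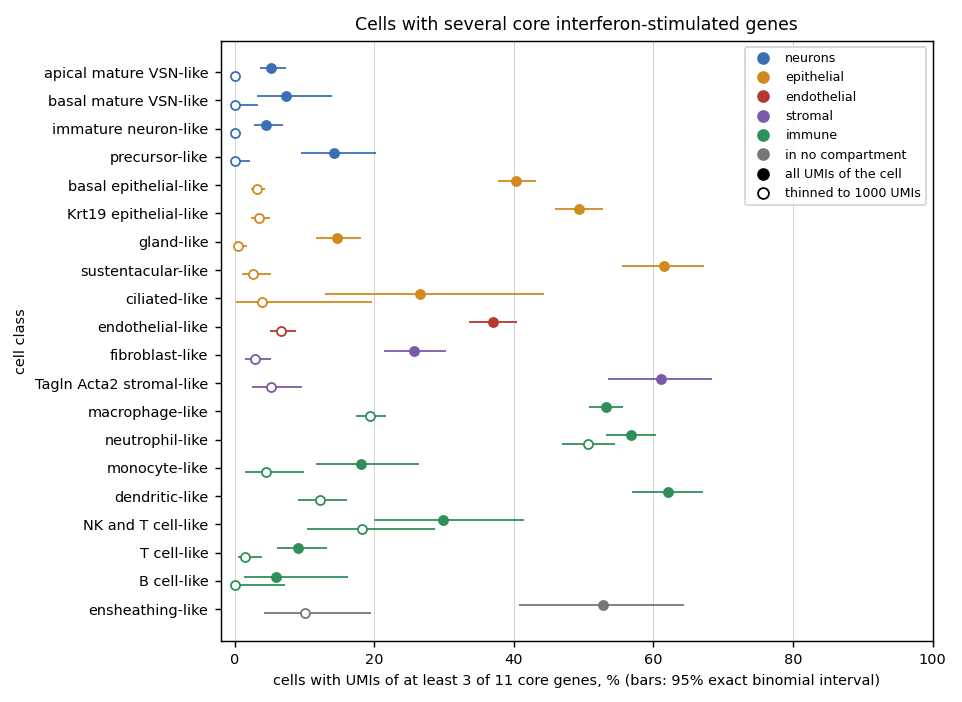
Share of cells in percent with UMIs of at least 3 of the 11 core genes in each class (filled points), and after thinning each cell to 1000 UMIs (open points), with bars for the 95% exact binomial interval. After thinning, neutrophil-like cells hold 50.7% and macrophage-like cells 19.4%, while the 4 classes of neurons lie at 0.

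Cells with many core genes were rare among neurons. Of the 18 neurons with at least 5 core genes, 9 were called doublets and 10 (55.6%) held at least 5 UMIs of macrophage or neutrophil markers, against 43 (3.35%) of all neurons. Leaving out such cells, a choice made after seeing the data, gave a summed member level of 1037 and 1054 CPM in neurons, and leaving out doublets gave 1024 and 1039 CPM.

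The other genes of the pathway were followed from lists that the members are not part of. The share of all genes that were higher than in neurons was 31.7% in epithelial, 26.9% in endothelial, 27% in stromal and 31% in immune cells, and 32.6%, 31.1%, 29.8% and 34.9% were lower. Of the 6 receptor subunits, 5 were higher and 1 lower in immune, endothelial and stromal cells each, and 3 were higher and 0 lower in epithelial cells. *Ifnar1* was at 13.6 and 18 CPM in neurons and 56.7 and 63.6 CPM in immune cells, *Ifnar2* at 59 and 57.8 and 280.1 and 289 CPM, and *Ifngr1* at 14.8 and 19.4 and 396 and 394 CPM. *Ifngr2* was at 17.2 and 21.6 and 103 and 111 CPM, and *Il10rb*, which serves the receptor of interferon lambda, at 16.1 and 18.8 and 193 and 201 CPM. The lower subunit was *Ifnlr1*, the other chain of that receptor, at 4.7 and 5.9 CPM in neurons and 1.41 and 0.954 CPM in immune cells, with an edgeR value of -1.54 ± 0.44 for *Ifnlr1* (adjusted p = 0.00831). T cell-like cells had the most *Ifngr1* of the immune classes fitted, at 1066 and 1063 CPM.

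Of the 10 kinases and transcription factors, 9 were higher and 1 lower in immune cells than in neurons. In epithelial, endothelial and stromal cells 7 were higher, and 1, 1 and 2 were lower. The lower gene in immune cells was *Jak1*, at 651 and 627 CPM in neurons, 53.6 and 56.1 in epithelial, 202 and 211 in endothelial, 141 and 127 in stromal and 117 and 124 in immune cells. It was lower than in neurons in each of the 4 comparisons, with log2 fold changes of -2.94 in epithelial, -1.45 in endothelial, -2.07 in stromal and -1.83 in immune cells. *Irf1*, an early target of interferon gamma, was highest in epithelial cells, at 347 and 317 CPM against 12.1 and 15.7 CPM in neurons. *Irf8*, a factor of macrophages and dendritic cells, was at 251 and 261 CPM in immune cells and 2.23 and 2.72 CPM in neurons.

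Sensors, genes listed as negative regulators and further targets had the following counts in the same fit. Of 12 sensors and adaptors, 12 were higher in immune cells, 8 in endothelial, 8 in stromal and 7 in epithelial cells than in neurons, and 2 were lower in epithelial cells. The 8 genes listed as negative regulators were *Socs1*, *Socs3*, *Irf2bp2*, *Ptpn2*, *Ptpn6*, *Isg20*, *Trim21* and *Nlrc5*, and whether each inhibits the pathway here was not tested. Of these 8, 8 were higher in immune cells, 6 in epithelial, 6 in endothelial and 5 in stromal cells. In endothelial and in stromal cells 1 each was lower. *Socs3*, which blocks the kinases, was at 27.6 and 38.3 CPM in neurons, 631 and 765 in epithelial, 762 and 893 in endothelial, 846 and 882 in stromal and 293 and 373 in immune cells. Of 47 further targets, 46 were higher and 0 lower in immune cells, 41 and 2 in endothelial, 38 and 2 in stromal and 40 and 2 in epithelial cells. The class I antigen-presenting genes *H2-D1* and *H2-K1* were among them, at 172 and 191 and 75.1 and 80.0 CPM in neurons and 3102 and 3163 and 2043 and 2218 CPM in immune cells.

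Of 20 interferon genes listed, 4 had UMIs in at least 3 barcodes, the minimum for a gene to be kept. *Ifng*, interferon gamma, had 114 UMIs in 37 of the 77 cells of the NK and T cell-like cluster, or 207 and 495 CPM. *Ifne*, an interferon of epithelia, had 126 UMIs in 87 of the 278 sustentacular-like cells, or 28.7 and 44.1 CPM. *Ifnz* had UMIs in 6 of the 1279 basal epithelial-like cells. *Ifnb1* had 10 UMIs in 4 of the 1689 macrophage-like cells, all of them in library 2.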

How the data were processed

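The deposited values are UMI counts per gene and barcode, made by the authors with Cell Ranger 4 against mm10 and merged over the 2 libraries. Whether the merge equalised depth, the annotation release and the use of strand are not given in the sources used here. Cells with 200 to 9000 genes and under 5% mitochondrial UMIs, and genes in at least 3 barcodes (21823), were kept, as in the study's methods. Doublets were called with scanpy 1.11.5 and kept. Clustering was done in Seurat 5.3.0 (R 4.3.3), with 16 interferon genes taken out of the variable genes, which gave 32 clusters. UMIs were summed over compartment or immune class and library, filtered at 10 UMIs over the sums, normalized by TMM and tested with edgeR 4.0.16 by its quasi-likelihood test with Benjamini-Hochberg adjustment. The SE is the absolute log2 fold change divided by the square root of F. DESeq2 1.42.0 was an alternative. The steps were tested on simulated data. Shares have exact Clopper-Pearson intervals (scipy 1.17.1, python 3.11.15). The libraries of the same class differed by more than sampling noise, with chi-square per degree of freedom of 1.62 to 12.0.

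Genes were named by rule: up to 6 members past the threshold with the largest absolute change in each comparison, plus *Isg15*, *Irf7*, *Ifitm3* and *Bst2*, and from the wider lists the receptors, the ligands with UMIs and up to 3 genes with the highest CPM. A further gene of the rule is not reported here. Other members were named for their count or pattern after their values were seen. The members, lists and markers were chosen with earlier results of these data known. Coordinates are from GENCODE vM21 on mm10, and promoters from RefSeq on GRCm38.p6. Same-numbered sums of 2 classes come from the same library, and their deviations correlated at 0.0522 to 0.154. The alternatives were the library number as a block in the fit, DESeq2, no TMM, no filter on low counts, thinned cells, a 10% mitochondrial limit, other clusterings and leaving out doublets or either library. Alternatives chosen after seeing the data left out neutrophils, the shallow macrophage-like cluster or cells with macrophage or neutrophil markers, or added dividing cells to the neurons.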

Additional observations from a re-analysis of the deposited data

Results flagged for a closer look

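Cells that entered no comparison also held UMIs of the members, and their levels are given as a description. The summed level of the members was 7423 CPM over the 74 ensheathing-like cells of both libraries, with *Isg15* at 1209 and 911 CPM, *Ifit3* at 359.9 and 376 CPM and *Ifi27* at 1214 and 1254 CPM in libraries 1 and 2. It was 2921 CPM in dividing cells without a name and 3343 CPM in an unnamed cluster of 213 cells that came almost wholly from library 1.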

How the results depend on the processing

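Of 297 counts of members past the threshold under an alternative, 286 were within 1.5 times of the reported count. Members lower in epithelial cells than in neurons numbered 4 without TMM and 1 in cells thinned to 1000 UMIs. Those lower in endothelial cells than in neurons numbered 1 with DESeq2, in thinned cells and with dividing cells counted among the neurons. Those lower in stromal cells than in neurons numbered 1 with DESeq2, with the 10% mitochondrial limit and without cells holding macrophage or neutrophil markers, and 0 in thinned cells. Members higher in monocytes than in macrophages numbered 2 with interferon genes among the variable genes, and those higher in T cells numbered 0 in thinned cells. Of 71 named combinations of member and comparison, 69 passed the threshold and 63 did so under every alternative with a test. *Ifitm3*, immune against endothelial, reversed to a log2 fold change of -0.36 without TMM. *Trim30a*, epithelial against neurons, went from 1.22 to -0.0023 without library 1. *Bst2* in stromal cells against neurons (0.25) did not pass with the 10% mitochondrial limit, nor did *Ifi44* and *Gbp3* in T cells against macrophages in thinned cells. The median of all genes moved without TMM by -0.18 in endothelial and -0.17 in stromal cells against neurons, and by 0.18 in neutrophils against macrophages. The cause of these changes was not tested.

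With the library as a replicate block, 26 members were higher and 2 lower in epithelial cells than in neurons, 25 and 2 in endothelial cells, and 20 and 3 in neutrophils against macrophages. The other 5 comparisons kept their counts under the block. Leaving out a library gave fold changes with no test, since 1 sum per class leaves no residual degrees of freedom. The summed level in a single library ranged from 1073 to 1100 CPM in neurons, 3893 to 4249 in epithelial, 5622 to 6401 in endothelial, 4821 to 5208 in stromal and 7443 to 7581 in immune cells. In thinned cells it was 1041 CPM in neurons, 5088 in epithelial, 5931 in endothelial, 4980 in stromal and 8770 in immune cells, which placed epithelial above stromal cells.

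The share of cells with at least 3 core genes in a single library ranged from 6.30% to 6.47% in neurons, 36.4% to 44.4% in epithelial, 36.3% to 37.7% in endothelial, 32.5% to 40.1% in stromal and 46.2% to 51.9% in immune cells. In thinned cells it was 0%, 2.77%, 6.66%, 3.64% and 23.1% in the same order. With at least 2 core genes it was 20.5%, 62.4%, 50.6%, 54.5% and 62.8%, and with at least 5 it was 1.40%, 10.97%, 20.7%, 13.2% and 26.99%. The motif core followed by CT was in 8 of the members' promoters. At this depth, *Oas3* in stromal cells and *Ifi44* in neutrophil-like and T cell-like cells, with 0 UMIs, gave only bounds.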
